A study of Mus musculus with 8 samples.

Results

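The genes described here are the type 2 helper cytokine genes Il4, Il5 and Il13, the lineage transcription factor gene Gata3, and Il17rb, which encodes a receptor chain for interleukin 25. They were chosen by name, as 5 of the 37411 genes of the count table, and all 5 had reads. RNA was sequenced from CD4+ effector T cells with a congenic marker, about 10000 per library, sorted 6 weeks after transfer into C57BL/6 Rag1-/- mice, which lack T and B cells of their own. The cells carried the retroviral vector LMPd with a short hairpin that targets Mdr1 (shMdr1), a multidrug transporter, or with one that targets CD8 (shCD8), the control. They came from the small intestine lamina propria or the spleen of hosts that lacked (Asbt-/-) or had (Asbt+/+) the ileal bile acid transporter Asbt, encoded by Slc10a2. Small intestine libraries were shMdr1 Asbt-/-, shCD8 Asbt-/-, shMdr1 Asbt+/+ and shCD8 Asbt+/+, and the spleen libraries were the same 4 combinations. Each of the 8 combinations of tissue, hairpin and host had 1 library, so each level of a factor had 4 libraries, which stand as replicates over the other factors. Hairpins were taken from the titles of the samples, since the field for the retrovirus gives shMdr1 in all 8. The labels do not say which libraries came from separate mice, and p-values reflect only how the libraries vary, in part perhaps for technical reasons.

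Type 2 helper cells are the CD4+ T cells that secrete interleukins 4, 5 and 13, the cytokines of antibody class switching to IgE, of eosinophil responses and of mucus production. Gata3 is the transcription factor that establishes the lineage and binds the cytokine locus, and interleukin 4 acts through STAT6 to raise Gata3 in turn. Il17rb, with Il17ra, forms the receptor through which interleukin 25 from epithelial tuft cells acts on type 2 cells. Rag1-/- hosts keep innate lymphoid cells, mast cells, basophils and eosinophils, which can also make type 2 cytokines.

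Il4, Il13 and Il5 lie together on chromosome 11, and the 250 bases before their starts are shown because both Gata3 and STAT6 act on this locus. Sequences are from RefSeq in the build GRCm38.p6, while the submitters' processing notes name mm9, so these positions apply to the reference only. The table of promoters matched all 5 genes, with 6 windows, because Il4 has a second, more downstream start. The windows shown are on the minus strand at chr11:53618666-53618915 for Il4 (its most upstream start), on the minus strand at chr11:53634703-53634952 for Il13 and on the plus strand at chr11:53720544-53720793 for Il5. Capitals mark matches to the GATA motif, which is GATA with A or T before it and A or G after it, or to the STAT6 motif, TTC and GAA with 4 bases between them, searched on both strands. No matches overlapped.
Il4: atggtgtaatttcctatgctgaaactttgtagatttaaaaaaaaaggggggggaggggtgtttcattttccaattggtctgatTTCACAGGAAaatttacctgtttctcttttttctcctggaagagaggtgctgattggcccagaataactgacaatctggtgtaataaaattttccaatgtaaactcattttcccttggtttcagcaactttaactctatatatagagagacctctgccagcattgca
Il13: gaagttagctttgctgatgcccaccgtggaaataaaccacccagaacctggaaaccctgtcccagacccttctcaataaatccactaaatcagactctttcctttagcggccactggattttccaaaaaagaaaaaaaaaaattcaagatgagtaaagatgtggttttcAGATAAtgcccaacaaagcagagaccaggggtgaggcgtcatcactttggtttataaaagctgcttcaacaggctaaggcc
Il5: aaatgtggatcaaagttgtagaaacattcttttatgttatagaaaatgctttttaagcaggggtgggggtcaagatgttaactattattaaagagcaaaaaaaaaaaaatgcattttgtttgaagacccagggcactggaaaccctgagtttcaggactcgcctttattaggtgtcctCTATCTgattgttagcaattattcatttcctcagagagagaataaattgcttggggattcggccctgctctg
The Il13 window held a GATA match at -81 to -76 and the Il5 window one on the opposite strand at -72 to -67. The Il4 window held a STAT6 match at -167 to -158, and the window at the other Il4 start held a GATA match at -80 to -75. The windows of Gata3 and Il17rb held neither set of letters. GATA letters were in 26.5% and STAT6 letters in 5.85% of all 32851 windows of this length. A match is a description of letters and not of binding.

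Library totals ran from 1685225 to 2767105 counts. The library labelled shCD8 small intestine Asbt+/+ had counts for 8456 genes, against 11345 to 13184 in the other 7, and the lowest mean Spearman correlation with the others (0.750, against 0.809 to 0.863). Abcb1a was the only Mdr1 gene checked here. It had 102 counts in shMdr1 small intestine Asbt-/-, against 228 with shCD8, and likewise 45 against 95 in spleen Asbt+/+. The ratios of their CPM were 0.444 (95% counting interval 0.348 to 0.563) and 0.459 (0.314 to 0.661). In spleen Asbt-/-, Abcb1a had 36 counts (22.1 CPM) for shMdr1, against 62 (29.5 CPM) for shCD8. That ratio was 0.746 (0.481 to 1.14), lower but not beyond counting error. The small intestine libraries of Asbt+/+ hosts held 23 Abcb1a counts (14.7 CPM) for shMdr1, against 21 (8.24 CPM) for shCD8, a ratio of 1.78 with a 95% counting interval of 0.943 to 3.39, so Abcb1a did not show the labelled direction there and did not differ beyond counting error. Cd8a, the target of the control hairpin, had 150 counts for shMdr1 and 0 for shCD8 in the same pair, which is the labelled direction. Its counts were 70 for shMdr1 against 57 for shCD8 in small intestine Asbt-/-, 31 for shMdr1 against 7 for shCD8 in spleen Asbt+/+, and 0 in both libraries of spleen Asbt-/-. The 2 small intestine libraries of Asbt+/+ hosts are called by their labels throughout, and hairpin values are also given without them. Slc10a2 had 4 counts over all 8 libraries, so it checks no host label. The defining genes of CD4+ T cells were abundant in every library: Cd3e, Cd3d, Cd3g, Cd4, Cd28, Lck and Cd5 summed to 5051 to 8539 CPM with shMdr1 and 3693 to 7677 CPM with shCD8.

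CPM values are counts relative to the library size scaled by its TMM factor. Per kilobase of exon, Gata3 was the most abundant of the 5 genes, with a mean of 43.4 CPM per kb over the 8 libraries, followed by Il4 with 28.4 CPM per kb. Il17rb, Il13 and Il5 had means of 2.37, 2.05 and 1.37 CPM per kb. Il4 and Gata3 had counts in 8 of 8 libraries, Il13 and Il17rb in 5, and Il5 in 3. The low-count filter of the test kept 10000 genes, among them Il4, Il5, Gata3 and Il17rb; Il13 was kept out. Il17rb and Il5 are near the limit of detection in most libraries and were kept through the few in which they were highest.

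The hairpin comparison asks what reduction of the transporter changes in effector T cells. Il4 and Gata3 were lower with shMdr1 in 4 of 4 matched pairs of libraries, as were 7.35% of tested genes. None of the 5 genes was higher with shMdr1 in any pair. Il5, Il13 and Il17rb had few or no counts with shMdr1, though, and some of their pairs did not differ beyond counting error. Il4 averaged 14.6 ± 11.7 CPM with shMdr1 and 55.0 ± 12.9 CPM with shCD8, and Gata3 averaged 118.7 ± 69.5 CPM with shMdr1 and 226.6 ± 54.8 CPM with shCD8 (mean ± SD, n = 4 each). Neither difference passed the edgeR quasi-likelihood test adjusted over all 10000 genes, in which no gene of the table passed. In bulk libraries, fewer cells that make a transcript and less of it per cell cannot be told apart.

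**Figure D1:**
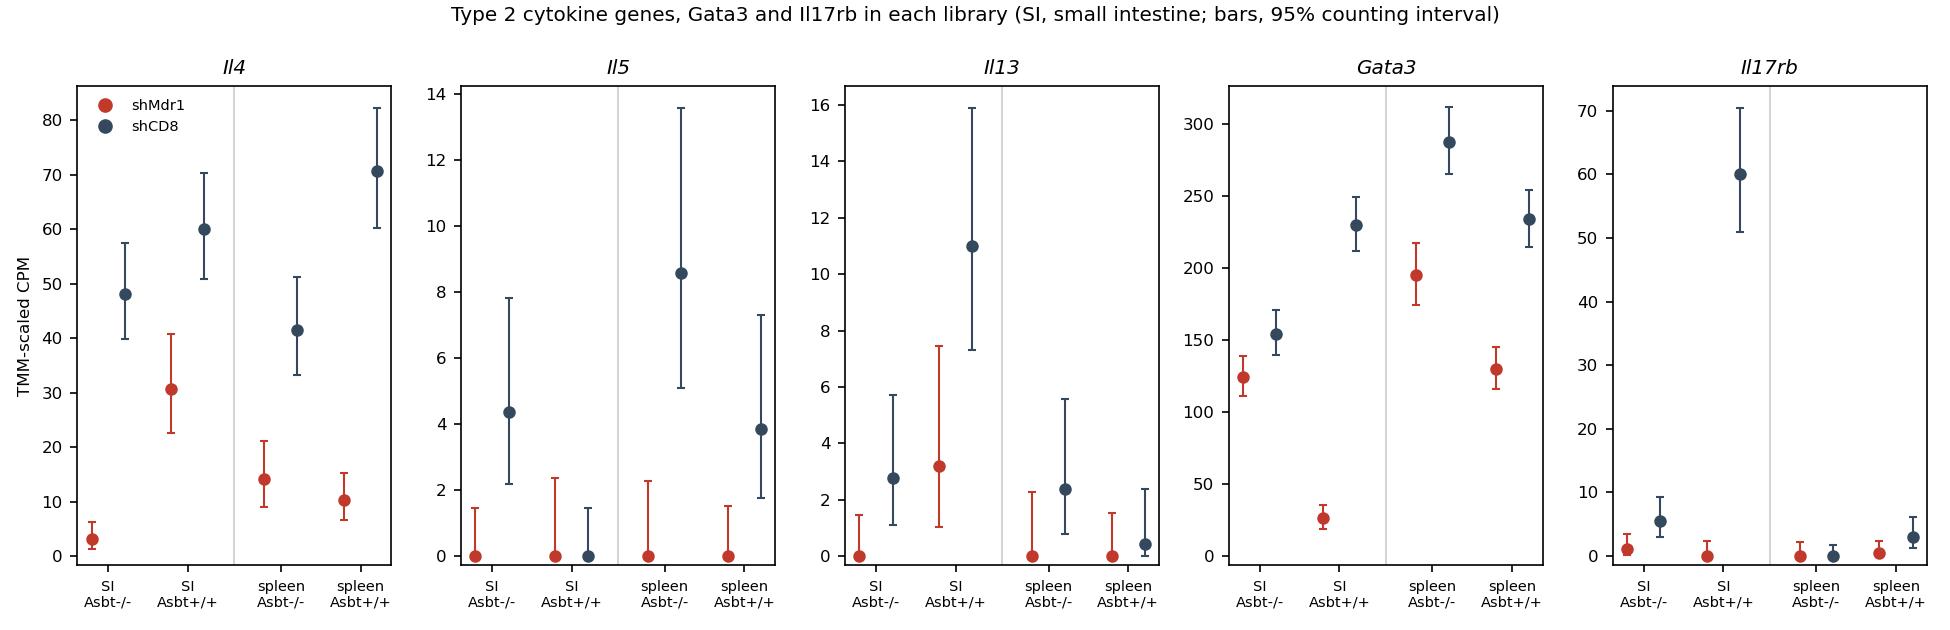
TMM-scaled CPM (linear axes) of Il4, Il5, Il13, Gata3 and Il17rb in the 8 libraries, shMdr1 in red and shCD8 in dark blue, by tissue (SI, small intestine) and host. Points are single libraries and bars are 95% counting intervals; the 4 shMdr1 values of Il4, 3.15 to 30.7 CPM, lie below the 4 shCD8 values, 41.5 to 70.6 CPM.

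Il4, the signature cytokine of the lineage, had 8 counts (3.15 CPM) in shMdr1 small intestine Asbt-/- and 121 (48.0 CPM) in its shCD8 counterpart. The library labelled shMdr1 small intestine Asbt+/+ had 48 counts (30.7 CPM) and the one labelled shCD8 had 153 (60.0 CPM). In the spleen of Asbt-/- hosts there were 23 Il4 counts (14.1 CPM) for shMdr1, against 87 (41.5 CPM) for shCD8. In the spleen of Asbt+/+ hosts there were 25 (10.4 CPM) for shMdr1, against 165 (70.6 CPM) for shCD8. All 4 shMdr1 libraries were thus below all 4 shCD8 libraries. Among the 10000 tested genes, 1.34% were separated in this way with shMdr1 lower. The log2 fold change of Il4 was -2.03 ± 0.59 (SE), lower in 4 of 4 pairs, with an unadjusted p of 0.0054 and an adjusted p of 0.999 in edgeR. Without the 2 libraries labelled small intestine Asbt+/+ it was -2.68 (edgeR adjusted p = 0.719).

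Within pairs, the size of the Il4 difference varied. It was 15.2-fold lower with shMdr1 in small intestine of Asbt-/- hosts (95% counting interval 7.49 to 36.1) and 6.82-fold lower in spleen of Asbt+/+ hosts (4.46 to 10.8). It was 2.94-fold lower in spleen of Asbt-/- hosts (1.84 to 4.88) and 1.96-fold lower in the pair labelled small intestine Asbt+/+ (1.41 to 2.77). These intervals cover counting error only, and the libraries carry no molecular identifiers. In the order of the 8 levels of Il4, the first 4, all shCD8, did not differ from their neighbours beyond counting error, nor did the lowest shCD8 library, spleen Asbt-/-, from the library labelled shMdr1 small intestine Asbt+/+. That library was above the next, shMdr1 spleen Asbt-/-, and the lowest, shMdr1 small intestine Asbt-/-, was below shMdr1 spleen Asbt+/+, both beyond counting error. Libraries that are not neighbours in this order could still differ. The Il4 level in shCD8 spleen Asbt-/- was below that in shCD8 spleen Asbt+/+ beyond counting error (ratio 0.587, 95% counting interval 0.448 to 0.766).

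Il5, the growth and survival factor of eosinophils, had no count in any of the 4 shMdr1 libraries. With shCD8 it had 18 counts (8.58 CPM) in spleen Asbt-/-, 9 (3.85 CPM) in spleen Asbt+/+, 11 (4.37 CPM) in small intestine Asbt-/- and 0 in the library labelled small intestine Asbt+/+. A count of 0 allows up to 1.18 to 1.92 CPM in the shMdr1 libraries, taken as 3 counts per library. Summed over each hairpin, there were 38 counts with shCD8 and 0 with shMdr1. Set against a floor of 3 counts over the group, Il5 was 10.9-fold lower with shMdr1. This value pools libraries and does not cover how they vary, so it is no bound on the hairpin difference. The groups overlap, since the library labelled shCD8 small intestine Asbt+/+ was also at 0. Both libraries labelled small intestine Asbt+/+ were at 0, so the counts are the same without them. Il5 passed the low-count filter only through shCD8 libraries, so no test between hairpins is given for it.

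Il13, the effector cytokine of goblet cells and smooth muscle, had 5 counts (3.19 CPM) in the library labelled shMdr1 small intestine Asbt+/+, the only shMdr1 library with any. With shCD8 it had 28 counts (10.99 CPM) in the library labelled small intestine Asbt+/+, 7 (2.78 CPM) in small intestine Asbt-/-, 5 (2.38 CPM) in spleen Asbt-/- and 1 (0.428 CPM) in spleen Asbt+/+. The 2 groups overlap, and the spleen pairs are too shallow to show a difference. In the fit without the low-count filter, the log2 fold change was -3.18 ± 2.09 (edgeR adjusted p = 0.978). It was -2.33 without shMdr1 small intestine Asbt-/-. Without the library labelled shMdr1 small intestine Asbt+/+ it was -5.76, a value that is no bound, since the remaining shMdr1 libraries are all at 0. Without both libraries labelled small intestine Asbt+/+, Il13 had 0 counts with shMdr1 and 13 with shCD8.

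Gata3 had 315 counts (124.2 CPM) in shMdr1 small intestine Asbt-/- and 389 (154.5 CPM) in its shCD8 counterpart. The library labelled shMdr1 small intestine Asbt+/+ had 41 counts (26.2 CPM) and the one labelled shCD8 had 586 (230.0 CPM). The spleen libraries of Asbt-/- hosts gave 318 counts (194.8 CPM) for shMdr1, against 604 (287.8 CPM) for shCD8. Those of Asbt+/+ hosts gave 313 (129.6 CPM) for shMdr1, against 547 (234.0 CPM) for shCD8. Each shMdr1 library was below its counterpart, but the groups overlap, because shMdr1 spleen Asbt-/- was above shCD8 small intestine Asbt-/-. Among tested genes, 7.35% were lower with shMdr1 in 4 of 4 pairs, and 2 of the 4 tested members, Il4 and Gata3, were among them.

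The pair labelled small intestine Asbt+/+ held the largest Gata3 difference, 8.78-fold lower with shMdr1 (95% counting interval 6.39 to 12.4). The other 3 pairs were 1.24-fold (1.07 to 1.45), 1.48-fold (1.29 to 1.70) and 1.80-fold (1.57 to 2.08) lower, in the order small intestine Asbt-/-, spleen Asbt-/- and spleen Asbt+/+. The log2 fold change over all pairs was -1.13 ± 0.41 (unadjusted p = 0.0187, adjusted p = 0.999, edgeR). It was -0.69 without the library labelled shMdr1 small intestine Asbt+/+, -0.75 without the one labelled shCD8 small intestine Asbt+/+ and -0.58 without both. The direction was the same in each case. In the order of levels, shCD8 spleen Asbt-/- was highest and the library labelled shMdr1 small intestine Asbt+/+ lowest, each apart from its neighbour beyond counting error.

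Il17rb had 3 counts (1.18 CPM) in shMdr1 small intestine Asbt-/-, 1 (0.414 CPM) in shMdr1 spleen Asbt+/+ and 0 in the other 2 shMdr1 libraries. With shCD8 it had 153 counts (60.0 CPM) in the library labelled small intestine Asbt+/+, 14 (5.56 CPM) in small intestine Asbt-/-, 7 (2.99 CPM) in spleen Asbt+/+ and 0 in spleen Asbt-/-. A single library thus held 86.0% of all Il17rb counts, and it is the one with the fewest detected genes. The fitted log2 fold change over all pairs was -3.36, given with no SE or test because it rests on that library. Without the library labelled shCD8 small intestine Asbt+/+, Il17rb did not pass the low-count filter and had no fitted value. Without both libraries of that pair, 4 counts remained for shMdr1, against 21 for shCD8.

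**Figure D2:**
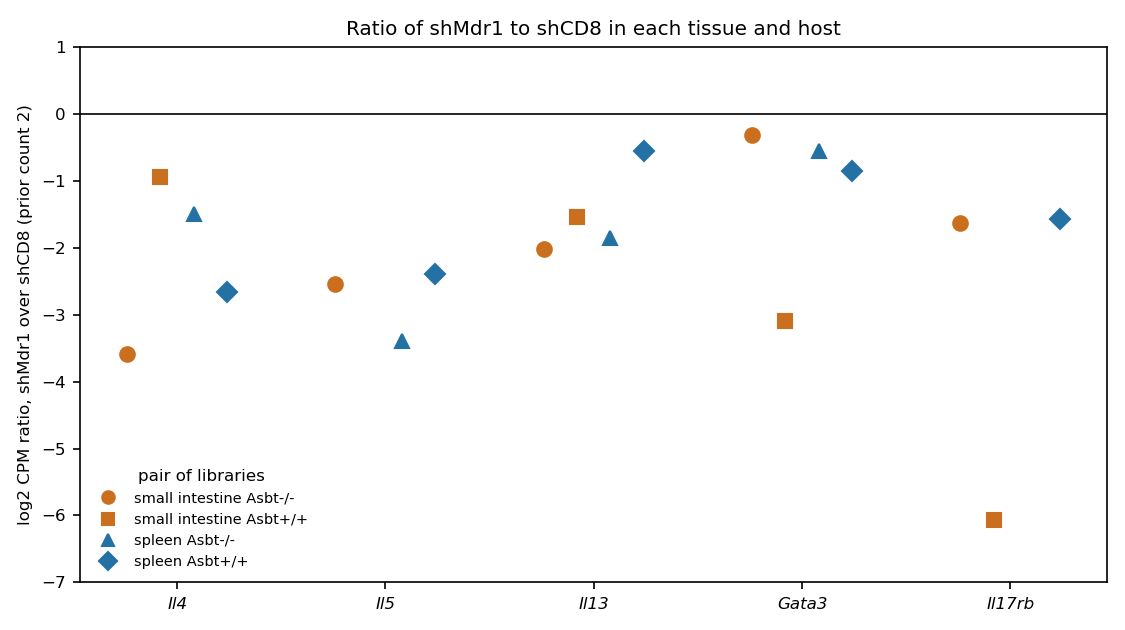
Log2 ratio of CPM (prior count 2), shMdr1 over shCD8, for each gene in the 4 pairs of libraries that share tissue and host. Each point is 1 pair without replication, and pairs with no count in either library are left out; every plotted ratio is below 0, from -0.31 for Gata3 in small intestine Asbt-/- to -6.07 for Il17rb in the pair labelled small intestine Asbt+/+.

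For the hairpin, 0% of the 10000 genes passed in edgeR, where 299 had an unadjusted p under 0.05 (2.99%) and DESeq2 called 4. Il4 and Gata3, the members with counts in every library, had an unadjusted p under 0.05 with shMdr1 lower, as did 1.41% of all tested genes. The members were chosen with earlier results of these data known, so this is a description.

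Markers of other cells that can make type 2 cytokines differed in level. Of 12 mast cell genes, 8 had no count in any library, including the proteases Mcpt1, Mcpt2 and Cma1 and the IgE receptor gene Fcer1a. The list summed to 10.4 to 21.5 CPM with shMdr1 and 4.76 to 40.0 CPM with shCD8, most of it Kit, Hdc and Cpa3. The highest sum, in the library labelled shCD8 small intestine Asbt+/+ with its 153 Il17rb counts, was Kit alone. Of 5 basophil genes 3 were at 0, and the list summed to at most 4.29 CPM with shMdr1 and 1.91 CPM with shCD8. Of 5 eosinophil genes Epx was at 0 and Prg2 and Siglecf had 2 and 1 counts in all; the list summed to 1.92 to 4.73 CPM with shMdr1 and 0 to 32.5 CPM with shCD8, nearly all Ccr3, which type 2 cells also express, and Ear2. Of 7 genes of group 2 innate lymphoid cells Nmur1 was at 0. The list summed to 304 to 895 CPM with shMdr1 and 436 to 983 CPM with shCD8, mostly Rora and Areg, which T cells also express. All 4 tested genes of that list were below 0 with shMdr1 (median log2 -0.90), as were 4487 of the 10000 tested genes. Rora (-0.23 ± 0.24) was lower with shMdr1 in 2 of 4 pairs and Areg (-0.30 ± 0.36) in 3 of 4. The mean of Areg was higher with shMdr1, at 159.6 CPM against 142.0 CPM with shCD8. Il1rl1, the interleukin 33 receptor gene, averaged 16.9 ± 15.5 CPM with shMdr1 and 42.8 ± 4.37 CPM with shCD8, and Klrg1, an inhibitory receptor gene, 21.9 ± 21.6 CPM with shMdr1 and 48.4 ± 31.7 CPM with shCD8. Both were lower with shMdr1 in 4 of 4 pairs, as were 7.35% of tested genes. The log2 was -1.505 ± 0.765 for Il1rl1 and -1.52 ± 0.82 for Klrg1, and neither passed (edgeR adjusted p = 0.999 for each). Type 2 helper and regulatory T cells can express both genes too. Neutrophil and erythroid genes leaned the other way in the fit: 5 of 5 neutrophil genes (median log2 1.28) and 4 of 4 tested erythroid genes (median 1.30) were above 0 with shMdr1. So were 5513 of the 10000 tested genes, and none passed. The pairs were mixed. The erythroid sum was lower with shMdr1 in spleen Asbt+/+ (2125 against 5055 CPM) and in small intestine Asbt+/+ (87.5 against 104.4 CPM). It was by far the highest in 1 library, shMdr1 spleen Asbt-/-. The neutrophil sum was lower with shMdr1 in small intestine Asbt-/- (8.28 against 35.3 CPM). The neutrophil genes summed to 8.28 to 7363 CPM with shMdr1 and 35.3 to 6669 CPM with shCD8, and the erythroid genes to 43.0 to 41236 CPM with shMdr1 and 38.1 to 5055 CPM with shCD8. The part of all these cells in the hairpin differences was not tested. Mitochondrial transcripts took 6.63 to 26.8% of counts with shMdr1 and 7.06 to 17.6% with shCD8, and their part was not tested either.

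Il4 and Gata3 did not keep a fixed ratio. Per kilobase of exon, the Il4 level was 0.0823 of the Gata3 level in shMdr1 small intestine Asbt-/-, 0.234 in shMdr1 spleen Asbt-/- and 0.259 in shMdr1 spleen Asbt+/+. With shCD8 it was 0.467 in spleen Asbt-/-, 0.978 in spleen Asbt+/+, 1.01 in small intestine Asbt-/- and 0.846 in the library labelled small intestine Asbt+/+. The library labelled shMdr1 small intestine Asbt+/+ stood apart with a ratio of 3.80, because its Gata3 level was the lowest of the series while its Il4 level was the highest of the shMdr1 libraries. Over all libraries the ratios of the hairpins thus overlapped. The other 3 shMdr1 libraries had lower ratios than all 4 shCD8 libraries. That order leaves out a library picked after its value was seen, and the Il4 level alone already separated the hairpins. The ratio of Il4 to Gata3 does not depend on how libraries were scaled.

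**Figure D3:**
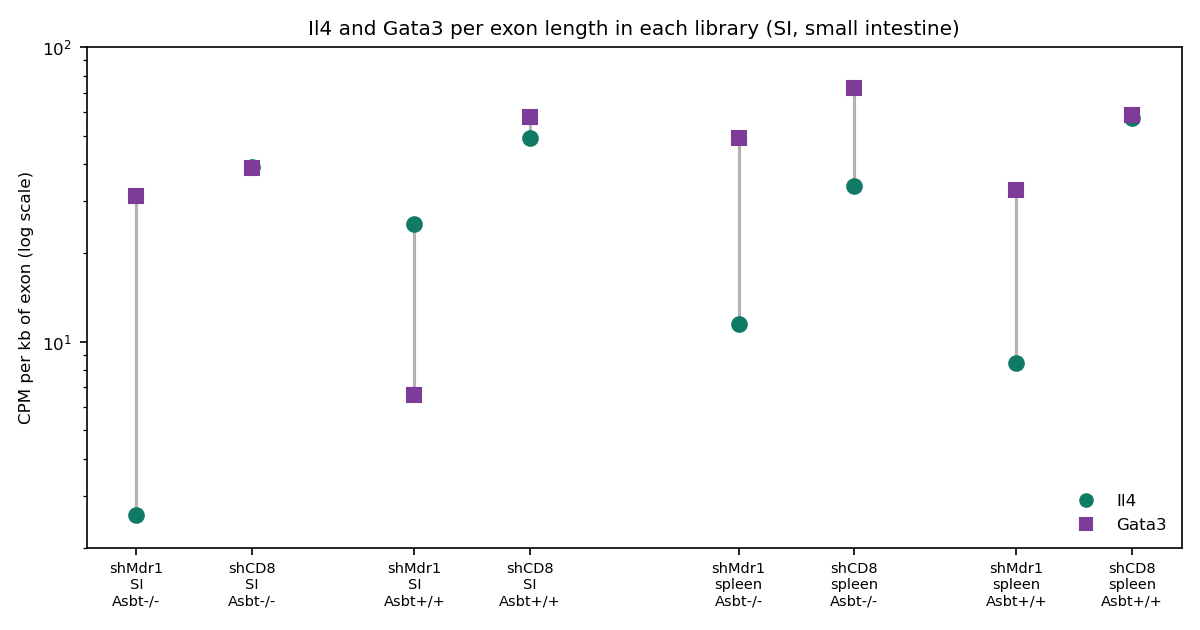
Il4 (circles) and Gata3 (squares) in CPM per kilobase of exon, on a log axis, in each of the 8 libraries (SI, small intestine), with a grey line joining the 2 values of a library. Il4 is below Gata3 in the 3 shMdr1 libraries other than the one labelled shMdr1 SI Asbt+/+, where the Il4 level is 3.80 times the Gata3 level. Il4 is also below Gata3 in shCD8 spleen Asbt-/- (ratio 0.467), shCD8 SI Asbt+/+ (0.846) and shCD8 spleen Asbt+/+ (0.978), and about level with it in shCD8 SI Asbt-/- (1.01).

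The tissue comparison sets cells of the small intestine, a site exposed to bile acids, against those of the spleen. No member passed: the means of Il4 were close, those of Gata3 and Il5 were lower in small intestine, and those of Il13 and Il17rb were higher there. Il4 averaged 35.5 ± 24.7 CPM in small intestine and 34.1 ± 28.0 CPM in spleen, a log2 fold change of 0.03 ± 0.58, higher in 2 of 4 pairs. It was -0.21 without shCD8 small intestine Asbt-/-, -0.61 without the library labelled shMdr1 small intestine Asbt+/+, -0.25 when shMdr1 spleen Asbt+/+ was left out, -0.02 when shCD8 spleen Asbt+/+ was, and above 0 without any of the other 4. Gata3 averaged 133.7 ± 84.4 CPM in small intestine and 211.6 ± 66.6 CPM in spleen, lower in 4 of 4 pairs (log2 -0.78 ± 0.40). Among tested genes 11.8% were lower in small intestine in 4 of 4 pairs. For Gata3 the shCD8 pair of Asbt+/+ hosts did not differ beyond counting error (ratio 0.983, 95% counting interval 0.873 to 1.11). The ratios of small intestine to spleen in the other pairs were 0.638 for shMdr1 Asbt-/-, 0.537 for shCD8 Asbt-/- and 0.202 for shMdr1 Asbt+/+. The value for Gata3 was -0.44 without the library labelled shMdr1 small intestine Asbt+/+ and -1.31 without the one labelled shCD8. Adjusted p was 0.996 for Il4 and 0.650 for Gata3 (edgeR, with n = 4 libraries per tissue).

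Il13 and Il17rb had most of their counts in small intestine. There were 40 Il13 counts from small intestine, in 3 of 4 libraries, and 6 from spleen, in 2 of 4, with a log2 fold change of 2.44 ± 2.25 in the fit without the filter (edgeR adjusted p = 0.881). Without both libraries labelled small intestine Asbt+/+ that value was 0.16. There were 170 Il17rb counts from small intestine and 8 from spleen, with a fitted log2 fold change of 3.91, given with no SE or test. Of those 170 counts, 153 were in the library labelled shCD8 small intestine Asbt+/+, and without them 17 remained and the gene fell below the filter. There were 11 Il5 counts from small intestine, all in shCD8 Asbt-/-, and 27 from spleen (fitted log2 -2.11 ± 2.09). Over all genes 62 passed this comparison, or 0.62%, and no member was among them. An unadjusted p under 0.05 was reached by 8.45% of genes, with neither Il4 nor Gata3 among them. Other cells differed in the same direction as Gata3: 5 neutrophil genes summed to 8.28 to 172.5 CPM in small intestine and 820.0 to 7363 CPM in spleen, and 5 erythroid genes to 38.1 to 104.4 CPM in small intestine and 1084 to 41236 CPM in spleen. Their part in the tissue values was not tested.

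The host comparison asks whether the bile acid transporter of the host changes the transferred cells. No member passed it, and no gene of the table did (0%), with 271 genes (2.71%) at an unadjusted p under 0.05, neither Il4 nor Gata3 among them, and 4 genes called by DESeq2. Il4 averaged 26.7 ± 21.5 CPM in Asbt-/- hosts and 42.9 ± 27.5 CPM in Asbt+/+ hosts, lower in 3 of 4 pairs (log2 -0.88 ± 0.58). Gata3 averaged 190.3 ± 71.1 CPM in Asbt-/- hosts and 155.0 ± 98.5 CPM in Asbt+/+ hosts, higher in 3 of 4 pairs (log2 0.50 ± 0.40). The exception for Gata3 was the shCD8 small intestine pair, at 154.5 CPM in Asbt-/- and 230.0 CPM in the library labelled Asbt+/+. Il5 had 29 counts in Asbt-/- and 9 in Asbt+/+ hosts (log2 2.28 ± 2.13). Il13 had 12 counts in Asbt-/- and 34 in Asbt+/+ hosts, and its fitted value without the filter, -1.18 ± 2.45, changed sign with the libraries used. Il17rb had 17 counts in Asbt-/- and 161 in Asbt+/+ hosts, 153 of them in the library labelled shCD8 small intestine Asbt+/+ (log2 -2.62, with no SE or test). Adjusted p in edgeR was 0.996 for Il4 and for Gata3 and 0.975 for Il13. Of 7 epithelial genes none was at 0, and the list summed to 0 to 10.3 CPM in Asbt-/- hosts and 12.4 to 103.5 CPM in Asbt+/+ hosts; its part was not tested.

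Whether one factor changed the effect of another was tested with 1 interaction per fit. No gene passed the tissue by hairpin, tissue by host or hairpin by host interaction in edgeR (0% each), where 169, 594 and 119 genes (1.69%, 5.94% and 1.19%) had an unadjusted p under 0.05 and DESeq2 called 0, 30 and 0. The smallest unadjusted p of Il4 or Gata3 was 0.0643, for the hairpin by host interaction of Gata3 (log2 1.45 ± 0.70, adjusted p = 1, edgeR). The differing sizes of the Il4 and Gata3 differences between pairs are therefore not shown to depend on tissue or host.

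Other genes of the type 2 pathway were counted in 8 lists. Between hairpins no list gene passed, over 5 tested cytokine genes, 9 receptors, 17 transcription factors and cofactors, 8 repressors, 5 surface and homing genes, 3 genes of interleukin 25 signalling, 5 neighbours in the cytokine locus and 8 signature genes of other helper lineages. Of the 9 listed cytokine genes Il3, Il9, Il24 and Il31 had no count in any library. The 5 tested ones, Il10, Csf2, Areg, Il21 and Lif, were all below 0 with shMdr1, as were 4487 of the 10000 tested genes. Their median log2 was -0.58, against 0.09 over all tested genes. Areg (-0.30 ± 0.36), Il21 (-0.18 ± 1.02) and Lif (-0.77 ± 1.21) were within 1 SE of 0. Mean CPM was higher with shMdr1 for Areg (159.6 against 142.0) and Il21 (42.3 against 37.2), and lower for Il10, Csf2 and Lif. None of the 5 had an unadjusted p under 0.05 in edgeR. The receptors had a median of -0.14 with 5 of 9 below 0, the transcription factors -0.15 with 10 of 17 below 0 and the repressors 0.10 with 3 of 8 below 0. The locus neighbours had a median of -0.64 with 4 of 5 below 0. Rad50, whose introns hold the control region of the type 2 locus, was the one above 0, at 0.53, and Kif3a, Irf1, Sept8 and Slc22a5 were below 0.

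Some list genes had an unadjusted p under 0.05 between hairpins and were picked out after their values were seen. Il9r, the interleukin 9 receptor, stood at -1.75 ± 0.60, with 15.9 ± 13.4 CPM with shMdr1 and 40.1 ± 14.7 CPM with shCD8. Tbx21, the type 1 factor that opposes Gata3, stood at 1.22 ± 0.50, with 36.2 CPM with shMdr1 and 15.7 CPM with shCD8. Eomes, a related T-box factor, stood at -1.41 ± 0.47. Il17a, the type 17 cytokine, stood at -1.22 ± 0.26, and Foxp3, the regulatory T cell factor, at -2.30 ± 0.96. None of these passed (edgeR adjusted p = 0.999 for each).

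Between tissues, 3 genes of these lists passed as higher in small intestine. Areg, which encodes an EGF receptor ligand made by type 2 cells and regulatory T cells, had 250.8 ± 111.5 CPM in small intestine and 50.7 ± 21.8 CPM in spleen (log2 2.34 ± 0.37, edgeR adjusted p = 0.0198). Rbpj, the DNA-binding partner of Notch, had 144.2 ± 60.5 CPM in small intestine and 35.6 ± 19.3 CPM in spleen (log2 2.09 ± 0.29, edgeR adjusted p = 0.00979). Il17a had 1311 ± 767 CPM in small intestine and 235.5 ± 124 CPM in spleen (log2 2.43 ± 0.27, edgeR adjusted p = 0.00224). Each was higher in 4 of 4 pairs, as were 8.11% of tested genes. When 1 library at a time was left out, Il17a passed in 8 of 8 fits. Rbpj did not pass without the library labelled shMdr1 small intestine Asbt+/+ (edgeR adjusted p = 0.0803), shMdr1 spleen Asbt-/- (0.0515), or the shCD8 spleen library of Asbt-/- (0.0658) or Asbt+/+ hosts (0.0515). Areg passed only without the library labelled shCD8 small intestine Asbt+/+ (edgeR adjusted p = 0.00143) or shCD8 spleen Asbt+/+ (0.0458), and had adjusted p-values up to 0.118 without each of the other 6. The cytokine list had a median log2 of 1.61 in this comparison and the signature genes of other lineages 1.04, against -0.17 over all tested genes. Between hosts no list gene passed.

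**Figure D4:**
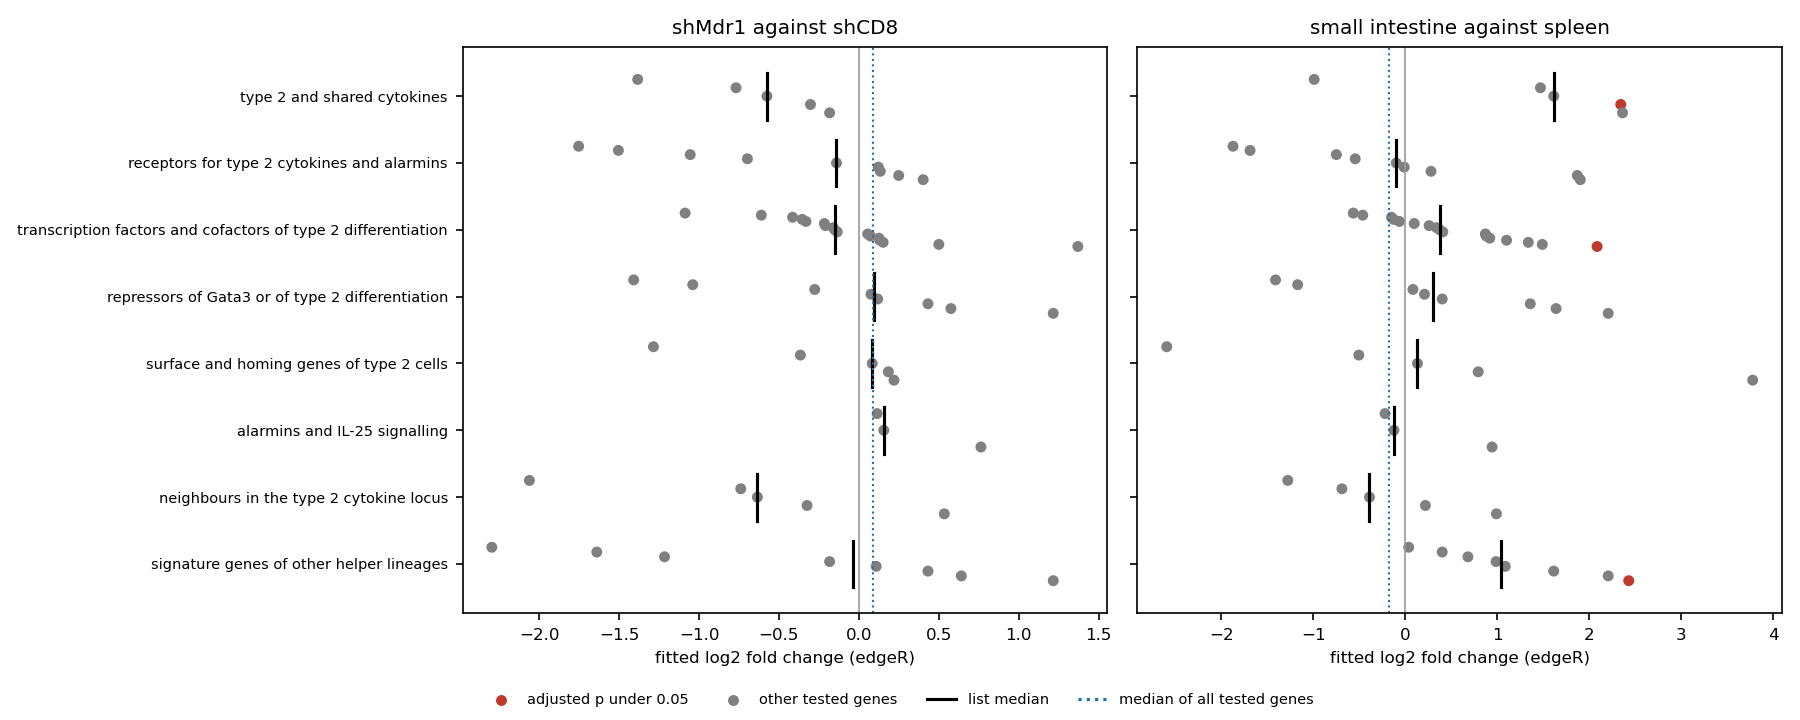
Fitted log2 fold change (edgeR) of the tested genes of 8 lists of type 2 pathway genes, shMdr1 against shCD8 on the left and small intestine against spleen on the right. Red points passed at an adjusted p under 0.05, black bars are list medians and the dotted line is the median of all 10000 tested genes; 3 points, Areg, Rbpj and Il17a, passed in the tissue comparison and none in the hairpin comparison.

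The genes most alike in pattern were ranked by the Pearson correlation of log2 CPM over the 8 libraries among 6982 or 6983 tested genes of mean level at least 10 CPM, as a description. For Il4 these were Stk10 (r = 0.942), a lymphocyte kinase, Fam107b (0.942) and Eps15 (0.925), an endocytic adaptor. For Gata3 they were Rassf2 (0.981), Slamf6 (0.976), a receptor of the SLAM family on T cells, and Klk1b27 (0.975). For Il5 they were Ccndbp1 (0.954), Stk4 (0.899) and Micu2 (0.891), and for Il17rb Dcaf10 (0.967), Ppfibp1 (0.959) and Ppm1m (0.957). The Il17rb correlations rest on the 1 library in which it is high, and those of Il5 on 3 libraries with counts. Gata3 was at 26.2 CPM in the library labelled shMdr1 small intestine Asbt+/+ and at 124.2 CPM or more in the others. The weight of that library in the Gata3 correlations was not tested. Among the members themselves, Il4 and Gata3 correlated at r = 0.22 (Spearman 0.643), Il4 and Il13 at 0.68 (0.659), and Il4 and Il5 at 0.57 (0.518). All libraries share their preparation, and 8 points allow high correlations in so many genes.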

How the data were processed

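The authors deposited raw read counts per gene as whole numbers, 1 column per library. The tools TopHat, HTSeq and DESeq2 and the build mm9 stand in the submitters' processing notes; their roles and versions, the annotation and whether counting used strand were not given in the sources used here. Per the labels' protocols, SMART-Seq v4 cDNA went into NEBNext libraries, with no molecular identifiers named. Totals were 1685225 to 2767105 counts. With library sizes scaled by TMM, 3 counts are 1.18 to 1.92 CPM. The filterByExpr function on the additive design kept 10000 of 17570 genes with a count (99.5% of counts). Counts were scaled with TMM and tested with the edgeR quasi-likelihood test (edgeR 4.0.16, R 4.3.3), with tissue, hairpin and host additive (4 residual degrees of freedom), or 1 interaction added (3), and Benjamini-Hochberg adjustment over all tested genes at 0.05. SEs were approximated from the fold change and the square root of F. Plotted pair ratios use a prior count of 2, and pair folds carry exact conditional 95% counting intervals. Exon lengths are unions of GENCODE vM21 exons. The fit was tested on simulated counts. Named beside the members were list genes past the test and the 3 genes most alike. The fit with pairs as a block was added after seeing the data. Other alternatives were DESeq2 size factors, the DESeq2 1.42.0 Wald test, no filter, no covariates, unscaled library sizes, a prior count of 10, and fits without 1 or 2 libraries. Members and lists were chosen with earlier results of these data known.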

Additional observations from a re-analysis of the deposited data

Results flagged for a closer look

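In 30 groups of 4 libraries (5 genes in 6 levels), 7 held a library far from the other 3. The chance share of about 1 in 20 groups does not hold for such low counts. Where the other 3 libraries are at 0, any count is flagged, and the groups share libraries. Il17rb at 60.0 CPM in the library labelled shCD8 small intestine Asbt+/+ stood apart among small intestine libraries (others 0 to 5.56 CPM), among shCD8 libraries (0 to 5.56 CPM) and among Asbt+/+ libraries (0 to 2.99 CPM). Il17rb at 2.99 CPM in shCD8 spleen Asbt+/+ stood apart among spleen libraries (others 0 to 0.414 CPM). Il5 stood apart at 4.37 CPM in shCD8 small intestine Asbt-/- among small intestine libraries and at 3.85 CPM in shCD8 spleen Asbt+/+ among Asbt+/+ libraries, with the others at 0. Il13 at 3.19 CPM in the library labelled shMdr1 small intestine Asbt+/+ stood apart among shMdr1 libraries, which were otherwise at 0. Apart from Il17rb at 60.0 CPM, these values rest on 5 to 11 counts.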

How the results depend on the processing

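No member passed the adjusted test in any comparison when 1 choice was changed. With no filter and libraries left out together, a change of 2 choices looked at after seeing the data, Il4 passed between hairpins in 2 of 9 fits: -2.20 without the library labelled shCD8 small intestine Asbt+/+ (edgeR adjusted p = 0.00203) and -2.69 without both libraries labelled small intestine Asbt+/+ (1.61e-05). Gata3 passed between tissues in 1 of 9, at -1.32 without the library labelled shCD8 small intestine Asbt+/+ (0.0104). The cause was not tested. With 1 choice changed, Il4 ranged between hairpins from -2.73 to -1.66 (log2; adjusted p 0.299 to 1.000) and Gata3 from -1.40 to -0.58 (0.308 to 1.000); DESeq2 gave no adjusted p for Il4. The tissue value of Il4 turned to -0.73 without both libraries labelled small intestine Asbt+/+, and ran from -0.61 to 0.40 as single libraries were left out. The host value of Il13 turned to 1.96 without both, and ran from -2.91 to 0.12. Counts of genes called moved without the filter (tissue 165, hairpin 9, host 14, tissue by hairpin 4, tissue by host 25, hairpin by host 3), with DESeq2 (tissue 257, hairpin 4, host 4, tissue by host 30) and without both libraries labelled small intestine Asbt+/+ (tissue 39, tissue by hairpin 513). Leaving out 1 library gave 11 to 137 calls for tissue (11 without the library labelled shMdr1 small intestine Asbt+/+, 137 without the one labelled shCD8), 0 to 4 for host (4 without the library labelled shCD8 small intestine Asbt+/+), 0 to 678 for tissue by hairpin (678 without shCD8 small intestine Asbt-/-), 0 to 1294 for tissue by host (1294 without the library labelled shMdr1 small intestine Asbt+/+) and 0 to 770 for hairpin by host (770 without shCD8 spleen Asbt+/+); the cause was not tested. Rbpj did not pass the tissue test without covariates (log2 2.01, edgeR adjusted p = 0.0742). Il5 and Il17rb fell below the filter in some of these fits, and tissue by host could not be fitted without both libraries. The labels give no replicate numbers to pair libraries by. A fit that blocks on the 4 matched pairs, chosen after seeing the data and leaving 3 residual degrees of freedom, gave 54 calls for tissue, 0 for hairpin (294 at an unadjusted p under 0.05) and 0 for host (194); hairpin values were -2.25 for Il4 and -1.14 for Gata3 (edgeR adjusted p = 0.986 for each), and the tissue value of Il4 turned to -0.081.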

Other observations

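The library labelled shMdr1 small intestine Asbt+/+ was also low in several genes besides Gata3, picked out after their values were seen. Il1rl1 was at 0.639 CPM there, against 12.9 to 47.7 CPM in the other 7 libraries. Foxp3 had no count there and 4.97 to 44.3 CPM in the others, and Il10 had 0.639 CPM against 6.13 to 61.2 CPM. Klrg1 had 1.92 CPM against 8.63 to 80.4 CPM. In the same library Areg was the highest of the series at 409.5 CPM. These are values of 1 library without a replicate.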
